A study of Drosophila melanogaster with 4 samples.

Results

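The centromere-proximal 3 Mb of the left arm of chromosome 3 (3L) in *Drosophila melanogaster* was examined for binding of Su(var)3-7. The regions were taken by position alone: every enriched cluster of the replicate-set list that lay on 3L and started above position 21543557, which leaves the last 3 Mb of the assembled arm (3L:21543558-24543557, FlyBase release 5). The rule found 377 of the 11471 clusters in that list. The lists of the single libraries held 319 of 5994 clusters there in replicate 1 and 296 of 5617 in replicate 2.

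All libraries came from nuclei of whole third-instar larvae of the wild-type strain Oregon-R, with no transgene or treatment. Chromatin fixed with formaldehyde was precipitated with the antibody Q3448 against Su(var)3-7 and sequenced (ChIP-seq), giving 2 ChIP libraries, and 2 libraries of input chromatin were the controls. Whole larvae mix many tissues, and a cluster says nothing about which cells carried the protein. The labels do not say that the replicates came from separate collections of larvae, so the spread between them may be technical.

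Su(var)3-7 is a zinc-finger protein that binds DNA and associates with HP1, the protein that recognises histone H3 methylated at lysine 9. It is a component of pericentric heterochromatin, the compact and repeat-rich chromatin that flanks the centromeres. Its gene was found as a dose-dependent modifier of position-effect variegation, the patchy silencing of a gene that has been moved next to heterochromatin. The proximal part of an assembled arm is where gene-rich euchromatin gives way to this chromatin, and 3LHet is a scaffold of 3L heterochromatin kept apart from the arm in release 5.

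Clusters lay over about as many bases as they left free in the proximal 3 Mb of 3L. They covered 48.98% of the bases in replicate 1 and 47.1% in replicate 2, or 48.1% ± 1.30 (SD, n = 2). The rest of the arm was covered to 7.60% and 6.28%. The proximal window was thus 6.44 and 7.50 times as densely covered, a ratio of 6.97 ± 0.75 (SD, n = 2). The replicates lay far closer to each other than either lay to the rest of the arm. With 2 paired replicates the smallest two-sided p of an exact permutation test is 0.5, and no difference between regions was tested, here or below. Each comparison is instead read against the spread between the replicates.

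The higher cover came from both more clusters and wider ones. Replicate 1 held 106.3 clusters per Mb in the proximal window and 31.0 per Mb in the rest of 3L, and replicate 2 held 98.7 and 28.5. The density was 3.45-fold ± 0.03 higher and the mean width 2.02-fold ± 0.20 higher (SD, n = 2 for both). In the replicate-set list the ratios were 1.69 for density and 2.34 for mean width, so the larger of them depended on the list. Mean widths were 4.61 kb against 2.45 kb in replicate 1 and 4.78 kb against 2.21 kb in replicate 2. The median free stretch between neighbouring clusters was 2.07 kb and 1.89 kb in the proximal window, and 11.5 kb and 12.5 kb elsewhere on the arm.

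Enrichment over input was also higher. The authors' value of a cluster was read as a log2 ratio of ChIP to input, in which 1 is a doubling. Its median over the proximal clusters was 0.85 in replicate 1 and 0.91 in replicate 2, against 0.60 and 0.61 in the rest of 3L. The difference of medians was 0.27 ± 0.04 on the log2 scale (SD, n = 2), or 1.21-fold ± 0.04. The highest clusters of the arm were not all proximal: the largest value was 2.76 in the proximal window and 1.91 elsewhere in replicate 1, but 3.01 and 3.09 in replicate 2.

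Width and value went together within the window. Spearman's rho between them was 0.74 over the 319 clusters of replicate 1 and 0.72 over the 296 of replicate 2. This is a description across clusters of 1 library, which are not independent. Clusters were therefore also set side by side within classes of width. Among clusters of 1 to 2 kb the proximal median exceeded that of the rest of 3L by 0.02 in replicate 1 and by 0.05 in replicate 2 on the log2 scale. The difference was 0.18 and 0.17 for clusters of 2 to 5 kb, and 0.41 and 0.51 for clusters of 5 to 10 kb. At 10 kb or more it was 0.29 and 0.35, with 34 proximal clusters in each replicate but only 8 and 2 in the rest of the arm.

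**Figure D1:**
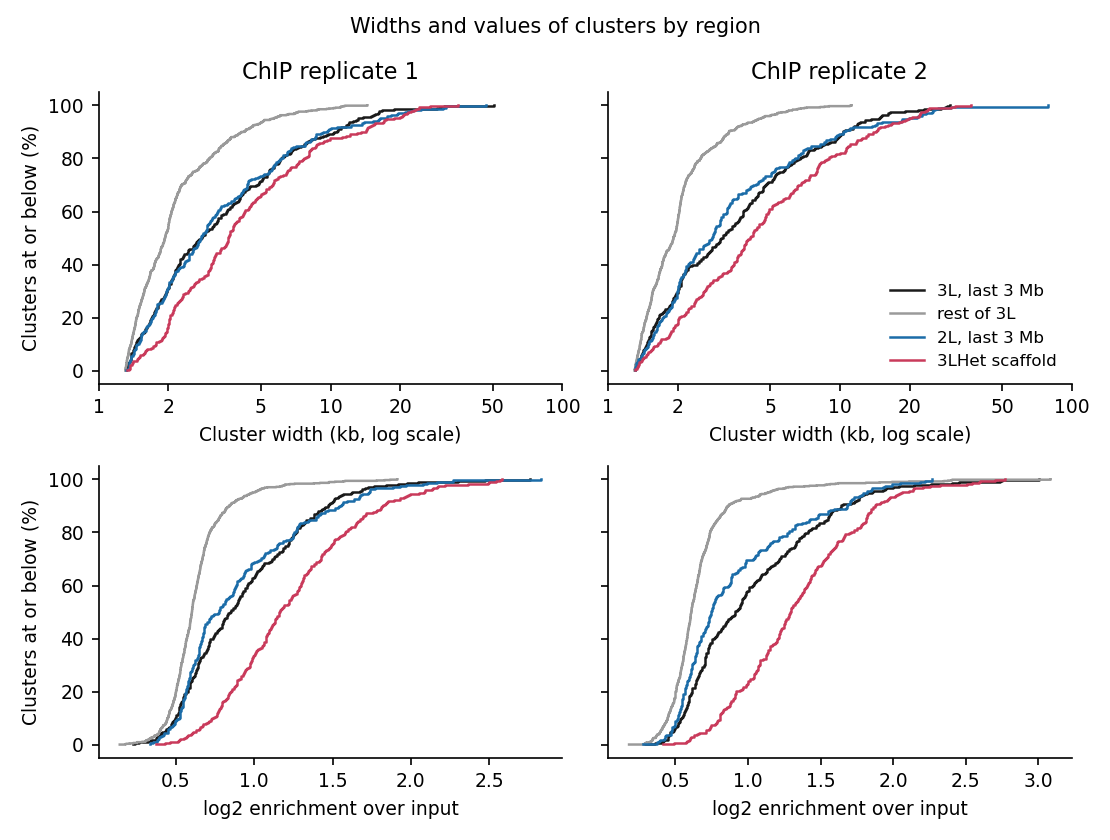
Cumulative share of clusters (%) by width (upper row, kb, log scale) and by log2 enrichment over input (lower row) in ChIP replicate 1 (left) and ChIP replicate 2 (right). Lines stand for the last 3 Mb of 3L, the rest of 3L, the last 3 Mb of 2L and the 3LHet scaffold. At the medians, the line of the 3L window lies to the right of that for the rest of 3L and to the left of that for 3LHet. Median values are 0.60 and 0.61 in the rest of 3L, and 1.16 and 1.29 on 3LHet. The order does not hold at the top: the largest values in replicate 2 are 3.01 in the window, 3.09 in the rest of 3L and 2.77 on 3LHet.

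The window was set against its closest counterparts. The last 3 Mb of 2L, the proximal end of the left arm of chromosome 2, was covered to 37.6% and 35.5%. The 3L window exceeded this by 11.5 ± 0.15 percentage points (SD, n = 2). This spread varied with the size of the window. With the last 2 Mb the excess was 11.1 ± 2.46 points, and with the last 4 Mb 8.29 ± 0.20 (SD, n = 2 for both). In the 3 Mb windows, median widths were nearly the same in replicate 1, at 2.76 kb on both arms. They were 3.10 kb on 3L and 2.81 kb on 2L in replicate 2. Cluster density differed more, with 79.0 and 69.0 per Mb on 2L. The median value was higher on 3L by 0.07 in replicate 1 and 0.16 in replicate 2 on the log2 scale.

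The 3LHet scaffold had a similar density of clusters, at 109.6 and 105.7 per Mb, but they were wider and more enriched. It was covered to 61.2% and 66.1%, which put the 3L window lower by 12.2 points in replicate 1 and by 18.9 points in replicate 2. Assembly gaps and positions where reads cannot be placed uniquely stayed in the base count of every region. Their part in the differences of cover was not tested. Median widths on 3LHet were 3.62 kb and 4.10 kb. The median value in the 3L window was below that of 3LHet by 0.32 and 0.38 on the log2 scale.

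Cover was not uniform within the 3 Mb. The 6 windows of 250 kb next to the proximal end were all covered to at least 57.9% in replicate 1 and 61.7% in replicate 2. The densest was not the outermost but the window from 0.75 to 1 Mb from the end (3L:23543558-23793557), with 71.9% and 80.7%. The first window, which touches the end, had 57.9% and 61.7%. From 1.5 to 1.75 Mb cover was 53.0% and 43.9%, and from 1.75 to 2 Mb it dropped to 22.9% and 15.3%. It was again higher from 2 to 2.25 Mb, at 51.3% and 39.5%. The lowest of the 12 windows lay at 2.5 to 2.75 Mb, with 15.4% and 8.70%. Beyond the 3 Mb limit, cover was 20.5% and 13.8% from 3 to 4 Mb, and 11.6% and 9.61% from 5 to 6 Mb.

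**Figure D2:**
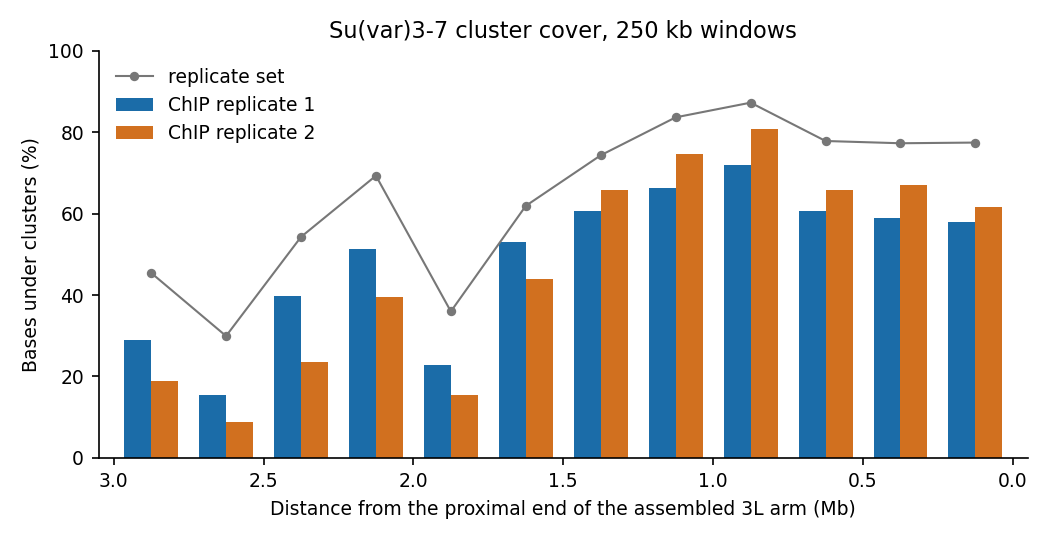
Percent of bases under Su(var)3-7 clusters in 12 windows of 250 kb, against the distance from the proximal end of the assembled 3L arm (Mb, the end at right). Bars are ChIP replicates 1 and 2 and the grey line is the replicate-set list. The 6 windows next to the end are covered to 57.9% or more in both replicates, with a second, lower rise at 2 to 2.25 Mb (51.3% and 39.5%).

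The value of clusters changed along the window with cover. The window was divided at 1.5 Mb from the end, a point chosen after the profile had been seen. Proximal to it cover was 62.7% and 69.3% in replicates 1 and 2, the median log2 value 1.05 and 1.17, and the median width 3.77 kb and 4.16 kb. Distal to it cover was 35.2% and 25.0%, the median value 0.64 and 0.67, and the median width 2.07 kb and 2.09 kb. The medians of the 250 kb windows did not overlap between these stretches. Proximally they ranged from 0.92 to 1.22 in replicate 1 and from 0.95 to 1.47 in replicate 2. Distally they ranged from 0.55 to 0.67 and from 0.58 to 0.71. The distal values were thus close to the median of the rest of 3L, although cover was still higher there. Only called clusters carry a value, so these medians say nothing of the bases between clusters.

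The replicates differed in opposite directions on either side. Replicate 2 had more cover in all 6 proximal windows of 250 kb, and replicate 1 had more in all 6 distal ones. In windows of 50 kb, replicate 2 had more cover in 26 of 30 proximal windows, and replicate 1 in 25 of 30 distal windows, with 2 distal windows empty in both. The rest of 3L (7.60% and 6.28%) and the last 3 Mb of 2L (37.6% and 35.5%) went the way of the distal stretch, and 3LHet went the way of the proximal one (61.2% and 66.1%). The number of reads in each library is unknown, and its part in this was not tested. Cover fell across the 1.5 Mb point by more than this difference in both replicates, from 62.7% to 35.2% and from 69.3% to 25.0%. The point was chosen after these profiles had been seen, so a fall across it is not independent support.

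Distal to 1.5 Mb the clusters formed separate islands. Only 4 of 30 windows of 50 kb were covered to 50% or more in both replicates there, against 25 of 30 in the proximal stretch and 0 of 430 in the rest of 3L. One pair of adjacent windows, 3L:22843558-22893557 and 3L:22893558-22943557, was covered to 99.5% and 76.6% in replicate 1 and to 82.1% and 55.1% in replicate 2. The window 3L:22343558-22393557 reached 90.5% and 88.2%, and 3L:22143558-22193557 reached 79.9% and 51.0%. Between the islands lay stretches with no cluster in any list. The longest was 3L:21979533-22058773, at 79.2 kb, followed by 3L:22620051-22645648 at 25.6 kb and 3L:22095047-22119930 at 24.9 kb. Next came 3L:21757688-21780062 (22.4 kb) and 3L:22545012-22566811 (21.8 kb). None of these 5 longest lay in the last 1.5 Mb, where the longest free stretch was 13.9 kb (3L:24005949-24019870). Of 21 free stretches of 10 kb or more, 1 lay there. Gaps of the assembly and positions where reads cannot be placed uniquely were not removed, and their part in these stretches was not tested.

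Turning to single members, the 377 clusters of the replicate-set list ranged in width from 1.001 kb to 50.8 kb, with a median of 2.45 kb. Their log2 values ranged from 0.10 to 3.37, with a median of 0.58. Values under 0.5 were found in 164 members, of which 142 were among the 205 members distal to 1.5 Mb. Values of 1 or more were found in 105 members, of which 93 lay in the last 1.5 Mb. Shares at these 2 limits were not counted for other regions. The upper quartile in the same list was 1.05 in the window and 0.48 in the rest of 3L. It was 0.76 in the last 3 Mb of 2L and 1.48 on 3LHet, where the median was 1.15. Values of 2 or more were found in 10 members (2.65%), a share close to the 2.67% over all sequences. Of these 10, 5 overlapped clusters of both replicates, and the others overlapped a cluster of neither.

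Wide clusters were more frequent than over the list as a whole. Of the 377 members, 52 (13.8%) were 10 kb wide or more, against 3.75% of all clusters of the list, 10.6% in the last 3 Mb of 2L and 23.3% on 3LHet. They held 47.5% of the bases of the members, and all 52 overlapped clusters of both replicates, as did all 15 clusters of that width in the rest of 3L. In the lists of the replicates 34 of 319 (10.7%) and 34 of 296 (11.5%) were that wide, against 4.04% and 4.81% over all sequences. Of the 52 wide members, 42 lay in the last 1.5 Mb and 10 distal to it.

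Of the 5 widest members, 3 were nonetheless distal to 1.5 Mb. The widest of all, 3L:22843767-22894571, spanned 50.8 kb at a log2 value of 1.26 and lay 1.65 Mb from the end. In replicate 1 it was a single cluster of 50.8 kb at 1.48, whereas in replicate 2 it was divided into 9 clusters of 2.01 to 11.9 kb that covered 81.1% of it. The third widest, 3L:22361129-22397092 (36.0 kb, 1.10), and the fifth, 3L:22163795-22197251 (33.5 kb, 0.75), lay in the other distal islands. The third was covered to 89.2% and 89.0% by 2 clusters of each replicate, and the fifth to 79.0% and 50.8% by 4 clusters of each.

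The remaining ones of the 5 widest lay in the densely covered stretch. The second, 3L:24038753-24078645, was 39.9 kb wide at a value of 1.10 and was covered to 87.3% by 6 clusters of replicate 1 and 87.4% by 5 of replicate 2. The fourth, 3L:23577761-23612106, was 34.3 kb wide at 1.22 and was covered to 93.8% and 93.2% by 3 clusters in each. In the second, 4 of the 5 breaks between clusters of replicate 1 overlapped a break of replicate 2 or lay within 1 kb of one, and the remaining break fell inside an unbroken cluster of replicate 2. In the fourth both breaks were matched. There the longer free stretch ran from 23598996 to 23600725 in replicate 1 and from 23597958 to 23600182 in replicate 2, measured between the edges of the neighbouring clusters. In the third widest member the 1 break of each replicate was unmatched. In the fifth widest, 2 of 3 breaks were matched in each replicate. Among the 197 members found in both replicates, 53 were divided into at least 2 clusters in replicate 1 and 55 in replicate 2. The extent of a single cluster is thus less firm than the cover of a stretch.

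**Figure D3:**
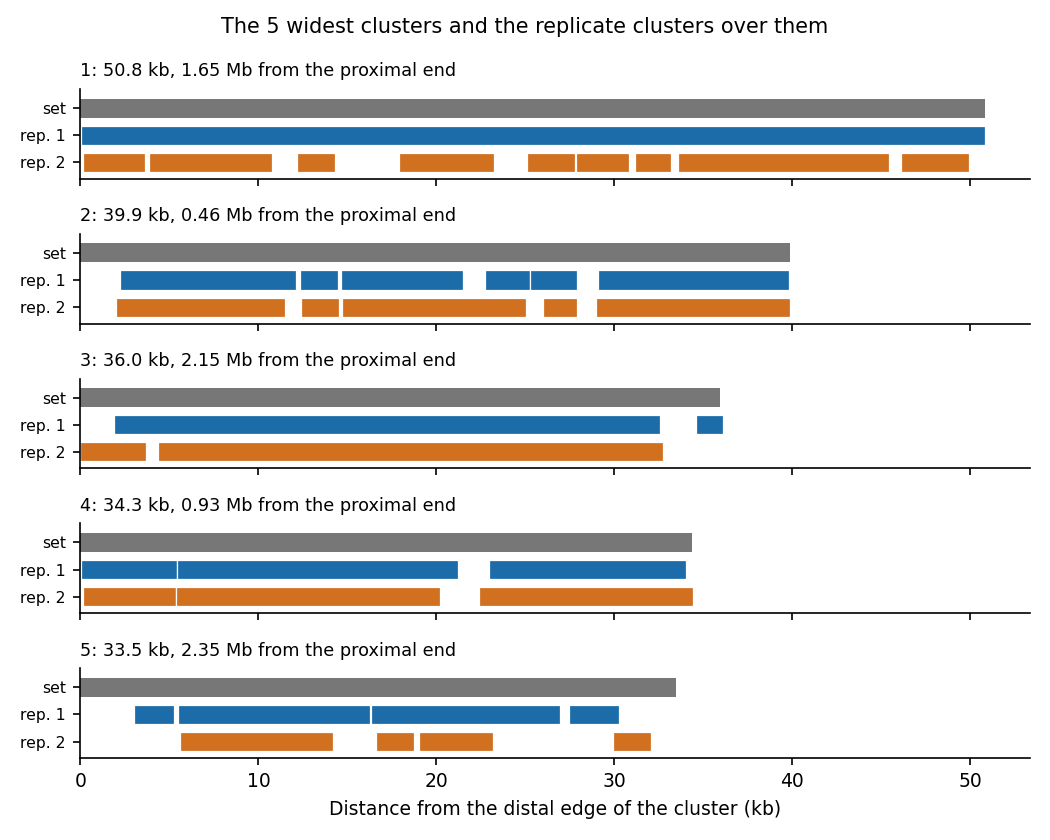
The 5 widest members (grey, replicate-set list) with the clusters of ChIP replicate 1 (blue) and ChIP replicate 2 (orange) that overlap them, against the distance from the distal edge of the cluster (kb). The widest is 1 cluster in replicate 1 and 9 in replicate 2, while the second is 6 and 5 clusters, with 1 break of replicate 1 unmatched, and the fourth is 3 in each.

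The most enriched members found in both replicates lay in the last 1.5 Mb in 9 of the 10 highest cases. Of all 197 members found in both, 122 lay in that stretch. The highest was 3L:24451743-24464751, 78.8 kb from the end, with a log2 value of 2.58 over 13.0 kb. Its value was 2.43 in replicate 1, as a mean of 2 clusters weighted by the bases they share with the member, and 2.45 in replicate 2. The replicates covered 96.4% and 98.9% of it. Close agreement was also seen for 3L:24371215-24376310, with 2.06 over 5.10 kb and replicate values of 2.02 and 2.14.

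The cluster 3L:23287840-23317521 combined a high value with a large width, at 2.10 over 29.7 kb, and had 1.97 in replicate 1 and 2.26 in replicate 2. Of the 10 highest it was the widest. Just proximal to it lay 3L:23334444-23348831 (1.79 over 14.4 kb, 1.68 in replicate 1) and 3L:23350875-23360250 (1.90 over 9.38 kb, replicate values 2.15 and 1.86). In replicate 2 the first of these shared a single cluster, at 1.47, with its distal neighbour 3L:23321483-23334404, whose own value was 0.80. The 3 highly enriched clusters stood within 72.4 kb of each other, and the 50 kb window that starts at 23293558 was covered to 90.6% and 94.9%.

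At the very end of the arm, 3L:24524879-24544214 had a value of 1.79, with 1.76 and 1.86 in the replicates. This last cluster ran past the end of the assembled sequence by 0.657 kb in the list and was clipped there for cover. 3L:24107061-24126959 had 1.80 over 19.9 kb, with 1.83 and 1.80 in the replicates. The only one of the 10 highest that lay in the distal stretch was 3L:22826458-22837987, with 1.79 over 11.5 kb and replicate values of 2.05 and 1.47. It sits just distal to the widest member, with 5.78 kb between them. Most of that stretch lies under another member found in both replicates, 3L:22838694-22843103 (4.41 kb, 0.96).

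The values of the replicates differed by more than 0.5 on the log2 scale at 3 of the 10 highest, among them 3L:22826458-22837987. 3L:24087434-24092422 had a value of 2.46, with 2.47 in replicate 1 and 3.01 in replicate 2, but clusters of replicate 1 covered only 27.2% of it, against 83.4% for replicate 2. 3L:23506194-23509885 had 2.13, with 1.498 in replicate 1 and 2.73 in replicate 2. This difference of 1.24 was the largest among members that could be paired between replicates.

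**Figure D4:**
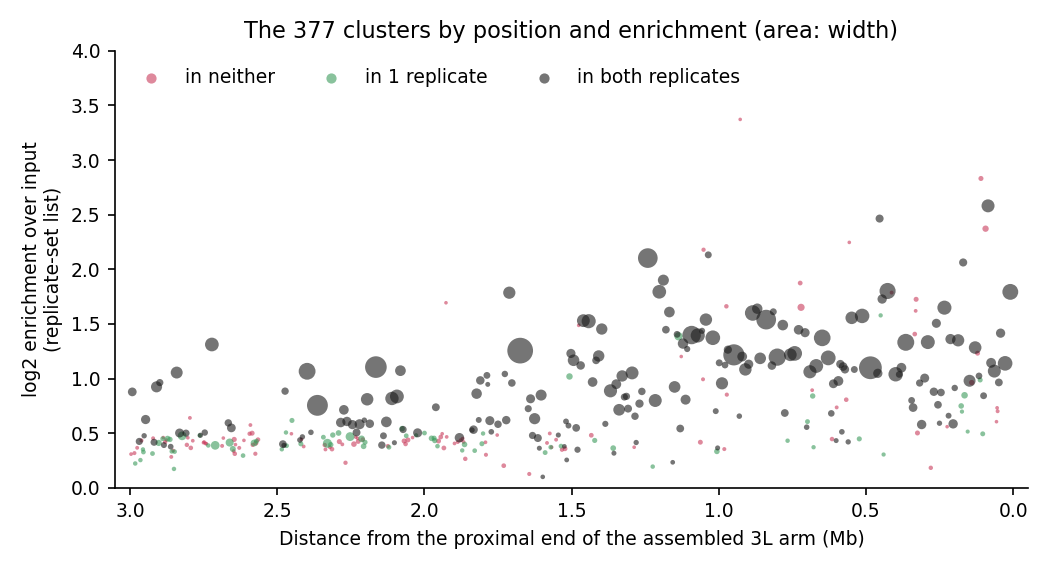
Log2 enrichment over input of the 377 clusters of the replicate-set list, against the distance of their centre from the proximal end of the assembled 3L arm (Mb, the end at right). The area of a point is proportional to the width of the cluster and the colour gives the replicates in which it was found. Clusters of any width with values of 1 or more are crowded within 1.5 Mb of the end (93 of 105 members). So are clusters of 10 kb or more at any value (42 of 52), and distal clusters gather under 0.5 (142 of 205).

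Values of the replicates were compared over the 116 members that overlapped exactly 1 cluster of each replicate, with neither cluster reaching another member. Pearson's r was 0.86 and Spearman's rho 0.86 across these clusters, which share their libraries and are not independent samples. The median was 0.90 in replicate 1 and 0.94 in replicate 2. The difference, replicate 2 minus replicate 1, had a median of 0.05 and an SD of 0.26 over the 116 members, and 88 of them differed by at most 0.25 on the log2 scale. In the last 1.5 Mb replicate 2 was higher at 51 of 70 members (median difference 0.13), and distally at 19 of 46 (median difference -0.03).

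Beside 3L:23506194-23509885, the largest differences were at 3L:23361844-23366372 (1.11 in replicate 1 and 1.95 in replicate 2) and 3L:21643164-21647143 (0.90 and 1.55). In all 3 replicate 2 was higher. The largest difference in the other direction was at 3L:22826458-22837987, where replicate 2 was lower by 0.58 on the log2 scale.

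**Figure D5:**
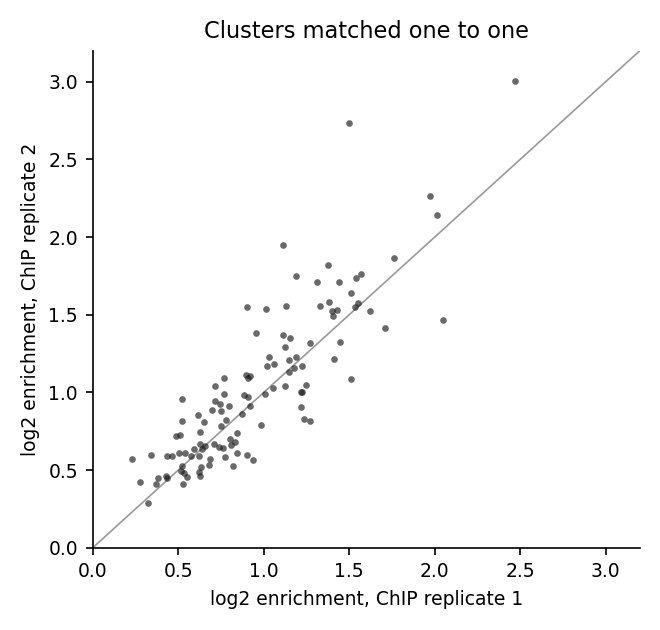
Log2 enrichment over input in ChIP replicate 1 (horizontal) and ChIP replicate 2 (vertical) for the 116 members that overlap exactly 1 cluster of each replicate. The line marks equal values. Most points lie near it (88 of 116 within 0.25), and the point farthest above it has 1.498 and 2.73.

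Support by the replicates was then counted. A member was called found in a replicate if at least 1 bp of it lay under a cluster of that replicate. By this rule 197 of 377 members (52.3%, exact 95% binomial interval 47.1 to 57.4%) were found in both, against 30.7% of all clusters of the list and 22.3% of those in the rest of 3L. The interval covers counting error only. It treats members as independent, but all share the same libraries and some neighbours share a replicate cluster, so it does not measure replication. On 2L proximal it was 47.4% and on 3LHet 73.3%. Together they made up 83.8% of all member bases, with a median width of 5.89 kb and a median value of 0.92. The replicate-set list derives from these same libraries, and this share is not independent evidence of binding.

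Support differed along the window and by width. It was 70.9% in the last 1.5 Mb and 36.6% distal to it. Of the 157 members narrower than 2 kb, 10 (6.37%) were found in both replicates, compared with 73.3% of those of 2 to 5 kb and 91.0% of those of 5 to 10 kb. In the rest of 3L these shares were 2.60%, 51.8% and 93.4%. The window therefore differed from the rest of the arm by 21.5 points at 2 to 5 kb and by -2.38 points at 5 to 10 kb, and these differences were not tested. The 48 members found in replicate 1 only and the 23 found in replicate 2 only lay in different places. Of the former 44 were distal to 1.5 Mb, and of the latter 9.

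Between the single libraries, 256 of 319 clusters in replicate 1 (80.3%) were met by at least 1 in replicate 2, against 69.4% over all sequences. In the other direction it was 266 of 296 (89.9%), against 74.2%. Bases that both libraries marked were 75.4% of those that either marked, compared with 41.6% in the rest of 3L, 75.7% in the last 3 Mb of 2L and 84.9% on 3LHet. Within the window this overlap was 83.7% in the last 1.5 Mb and 59.6% distal to it. Overlap tends to be larger where cover is larger, and it was not corrected for cover. Every cluster of either replicate in the window overlapped a cluster of the replicate-set list.

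The other 109 members (28.9%) were found in neither replicate. They were narrow, with a median of 1.21 kb and a largest width of 3.97 kb, and had a median log2 value of 0.44. A few had high values. The 3 highest were 3L:23615958-23616958 (3.37 over 1.001 kb), 3L:24433182-24435152 (2.83 over 1.97 kb) and 3L:24448300-24451395 (2.37 over 3.10 kb). The value of each of these recurred in the list up to a whole number of log2 units, its fractional part being shared to 9 decimals by at least 3 clusters. In all, 80 members (21.2%) had such a value, against 27.9% over all sequences. Of these 80, 55 were among the members found in neither replicate and 6 among those found in both. The highest value of the window, 3.37, thus belonged to a narrow cluster with no replicate support, and the highest with support in both was 2.58. The most distal member, 3L:21547018-21548089 (1.07 kb, 0.31), was likewise found in neither.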

How the data were processed

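ChIP-seq of Su(var)3-7 in nuclei of Oregon-R third-instar larvae comprised 2 ChIP and 2 input libraries, each input carrying the replicate number of a ChIP library. Per the submitters' processing notes, reads were aligned with Bowtie 0.12.7. The deposited lists, 1 for each ChIP replicate and 1 for the replicate set, give regions of significant enrichment on FlyBase release 5, per the file headers. Nothing in the labels or headers names the caller, its threshold or how replicates were combined. The deposited value was read as log2 enrichment over input made by the authors. The scale was inferred from values that recur whole units apart. The lists hold no read counts, so depth is unknown and no interval for it is given.

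Cover was the percent of bases under at least 1 cluster, clipped to the sequence. Regions were compared within each replicate, with mean and SD, in Python 3.11.15 with NumPy 2.4.6, SciPy 1.17.1 and matplotlib 3.10.9. Cover and overlap were checked on simulated intervals and recovered in 20 of 20 draws. Regions named are the 10 highest members found in both replicates, the 5 widest, the end members, the 3 largest replicate differences, the 5 longest free stretches and the 3 highest members found in neither. Members, lists and rules were chosen with earlier results of these data known. Genes and sequences were not analysed here, because the gene table used is of another release.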

Additional observations from a re-analysis of the deposited data

How the results depend on the processing

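Of 46 values under alternatives other than leaving out a replicate, 8 stayed within the replicate spread or the interval of the reported value. No ratio or difference between regions changed direction. Cover, overlap, shares and run lengths are amounts without a direction, so they could not do so. With 2 replicates, each alone lies within 1 SD of their mean by construction. Leaving out 1 replicate gave cover of 47.1 to 48.98%, a ratio to the rest of 3L of 6.44 to 7.50, a width difference of 0.83 to 1.18 kb, a log2 difference of 0.24 to 0.30, and 11.4 to 11.6 points above 2L and -18.9 to -12.2 points from 3LHet. With clusters at or above the median value of their list, cover was 40.8%, the ratio 17.6, the width difference 1.57 kb, the distances from 2L and 3LHet 11.8 and -21.4 points, and the replicate overlap 74.3%. With clusters of 2 kb or more, these were 43.1%, 10.1, 1.61 kb and 10.2 points from 2L, with a log2 difference of 0.34 and an overlap of 76.1%. Merging clusters closer than 1 kb gave cover of 49.4%, a width difference of 2.37 kb, 12.1 points from 2L and an overlap of 76.2%. The replicate-set list gave cover of 64.5%, a ratio of 3.96, 14.8 points from 2L and a log2 difference of 0.16. The last 2 Mb gave 57.96%, 1.51 kb, 11.1 points, a log2 difference of 0.40 and an overlap of 81.2%, and the last 4 Mb gave 40.3%, 0.71 kb, 8.29 points, 0.19 and 72.3%. The causes were not tested. The share of members found in both replicates was 44.3% when 50% of the member had to be covered in each, 74.2% among members at or above the list median, 85.0% at 2 kb or more, 64.0% in the last 2 Mb and 46.6% in the last 4 Mb. Without members that had a recurring value, an alternative chosen after seeing the data, it was 64.3%. The run of 250 kb windows from the end averaged 1.625 Mb at 50% cover (1.75 and 1.5 Mb in replicates 1 and 2), 2.125 Mb at 20% (2.5 and 1.75 Mb) and 3.75 Mb at 10% (5 and 2.5 Mb). The context of genes and sequence was not run. No paired analysis was possible because the input libraries, which carry the same replicate numbers as the ChIP libraries, have no list of their own; regions were compared within each replicate as a description. The unknown depth limits every value.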
